A study of Mus musculus with 6 samples.

Results

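The genes described here are the effectors of the Hippo pathway and the targets by which YAP activity is usually read. They comprise the coactivator Yap1 and its paralogue Wwtr1 (TAZ), the DNA-binding partners Tead1, Tead2, Tead3 and Tead4, and the targets Ccn1 (Cyr61), Ccn2 (Ctgf), Ankrd1 and Amotl2. Members were all probes whose transcript accession maps to one of these 10 symbols, without regard to their signal. All 10 genes had a probe, which gave 13 probes of the 39429 on the array that are not controls, and 10 of 20659 named genes. Tead1 had 3 probes and Tead2 had 2, each set directed to a shared transcript accession, and the other genes had 1.

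Gene expression was measured on 6 Agilent arrays of 1 colour (Cy3), each hybridised with total RNA of cells of adult mouse liver, sorted for the tetraspanin CD63 and then cultured. The cells came from livers with DDC-induced injury (3 arrays, replicates 1, 2 and 3), where DDC is a porphyrinogenic compound that causes cholestatic liver injury, or from livers with no injury (3 arrays, replicates 1, 2 and 3). No genotype, strain, age, sex or time of injury is given for either group. All cells were grown in the same serum-containing medium with HGF, EGF, insulin, transferrin, selenium, dexamethasone and nicotinamide, so the arrays describe cultured cells and not fresh isolates, and the design text calls the samples cell lines. VEGF and bFGF were added to some cultures whose names match no sample title, and this treatment cannot be assigned to arrays.

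In the Hippo pathway a kinase cassette of MST and LATS kinases phosphorylates YAP and TAZ, which holds them in the cytoplasm and promotes their breakdown. Unphosphorylated YAP and TAZ enter the nucleus and activate transcription with TEAD proteins, which recognise the letters GGAATG. In the mouse liver, YAP activity is known for its control of organ size and for pushing hepatocytes toward a biliary or progenitor state. Arrays measure the RNA of these genes and neither the phosphorylation nor the location of the proteins. In a culture with more than 1 cell type, fewer cells of a type and less RNA per cell cannot be told apart.

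The promoters of 7 of the 10 genes were in the RefSeq table of build GRCm38.p6, and those of Tead1, Tead4 and Ccn2 were not matched. The 250 bases before the transcript start are shown for 4 genes, the targets Ankrd1 and Amotl2, which were lower after DDC injury, the target Ccn1, for which no difference was detected, and Tead2, which was higher. Capitals mark GGAATG or its reverse complement CATTCC. The windows are chr19:36119845-36120094, minus strand, for Ankrd1, chr9:102717554-102717803, plus strand, for Amotl2, chr3:145649986-145650235, minus strand, for Ccn1, and chr7:45215542-45215791, plus strand, for Tead2, each written 5′ to 3′ along the gene.
Ankrd1: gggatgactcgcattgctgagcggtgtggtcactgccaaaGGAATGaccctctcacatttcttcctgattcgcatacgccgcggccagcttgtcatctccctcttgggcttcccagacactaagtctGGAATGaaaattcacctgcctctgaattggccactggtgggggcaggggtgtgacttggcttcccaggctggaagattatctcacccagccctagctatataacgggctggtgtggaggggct
Amotl2: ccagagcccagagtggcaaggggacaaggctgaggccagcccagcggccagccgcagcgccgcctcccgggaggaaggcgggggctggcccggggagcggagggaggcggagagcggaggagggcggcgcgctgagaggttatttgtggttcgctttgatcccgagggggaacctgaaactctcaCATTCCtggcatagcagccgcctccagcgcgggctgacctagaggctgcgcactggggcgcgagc
Ccn1: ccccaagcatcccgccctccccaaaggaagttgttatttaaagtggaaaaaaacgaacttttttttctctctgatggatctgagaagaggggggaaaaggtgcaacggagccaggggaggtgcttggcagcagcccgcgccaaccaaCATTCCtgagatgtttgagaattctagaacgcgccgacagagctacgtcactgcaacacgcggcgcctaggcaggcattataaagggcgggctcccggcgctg
Tead2: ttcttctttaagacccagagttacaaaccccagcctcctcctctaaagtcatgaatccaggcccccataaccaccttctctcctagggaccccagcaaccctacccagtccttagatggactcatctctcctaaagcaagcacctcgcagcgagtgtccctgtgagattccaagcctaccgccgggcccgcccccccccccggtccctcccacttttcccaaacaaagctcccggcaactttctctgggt

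Ankrd1 held GGAATG beginning 210 and 123 bases before its start. Amotl2 held CATTCC 65 bases before its start and Ccn1 held CATTCC 103 bases before its start. The Tead2 window held neither. Yap1 (141 bases before the start), both starts of Wwtr1 and 2 of 3 starts of Tead3 also held the motif, so that 6 of the 7 genes had it in at least 1 window, against 14.4% of 27025 genes in the table. Counted by window it was in 8 of 10 of the members' windows and in 12.6% of 32851 windows, where the 2 windows of Wwtr1 overlap and share 1 site. The AP-1 letters TGANTCA, searched in the same windows, were in none of the 10 and in 6.75% of all. A match of letters is a description of the sequence and shows no binding. Among the 4 genes shown, the motif stood before the starts of both targets that fell and before Ccn1, for which no difference was detected.

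Each value is a log2 processed signal from which the 75th percentile of its array was subtracted, so a value of 0 lies at that percentile, and values of different probes are not levels that can be compared. limma tested the probes that at least 3 arrays showed well above background, and a probe was called when its adjusted p (Benjamini-Hochberg over all probes tested) was below 0.05. Of the 13 member probes 12 were tested, and these 12 were well above background on all 6 arrays. The arrays of no-injury replicates 1 and 3 could not be told apart from the noise of probes printed 10 times (137 bright probes, a spread 1.02 times that noise, chi-square 140.3, 136 degrees of freedom, p = 0.382) and were counted as 1 sample, so the test compared 3 DDC injury samples with 2 no-injury samples. Over a wider set of 246 repeated probes the same chi-square test did separate the pair (1.19 times the noise, p = 2.81e-05). Nothing in the labels says which arrays came from separate livers, and p-values measure only the spread between these samples, which may be technical. The arrays were read in 3 scans, each with arrays of 1 group only, and the scan of DDC injury replicate 1 fell on a different day from the rest. The array's 75th percentile lay between 1440.7 and 2270.8 intensity units, and the number of arrays limits the precision.

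Of the 12 tested member probes, 3 were called higher and 3 lower after DDC injury. Over all 27444 probes tested, 15.5% were called higher and 13.8% lower, or 29.2% in all. The members' median difference was 0.03 on the log2 scale, against -0.10 over all probes tested, and the median size of the difference regardless of sign was 0.66, against 0.53. The called probes were both of Tead2 and a dim probe of Tead1, which were higher, and those of Ankrd1, Amotl2 and Tead4, which were lower. When all 3 no-injury arrays were averaged, leaving 1 sample in that group, no member probe (5 at an unadjusted p below 0.05) and 1.5% of all probes (1.02% higher, 0.481% lower) were called. Leaving out no-injury replicate 2 also left 1 sample in that group, since replicates 1 and 3 were averaged. The differences were then 1.48 and 1.56 for Tead2, -0.90 for Ankrd1 and -0.99 for Amotl2. Each call of a member probe therefore rests on a second no-injury sample, here replicate 2 counted as a sample of its own. No fit left out that array with replicates 1 and 3 counted separately.

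**Figure D1:**
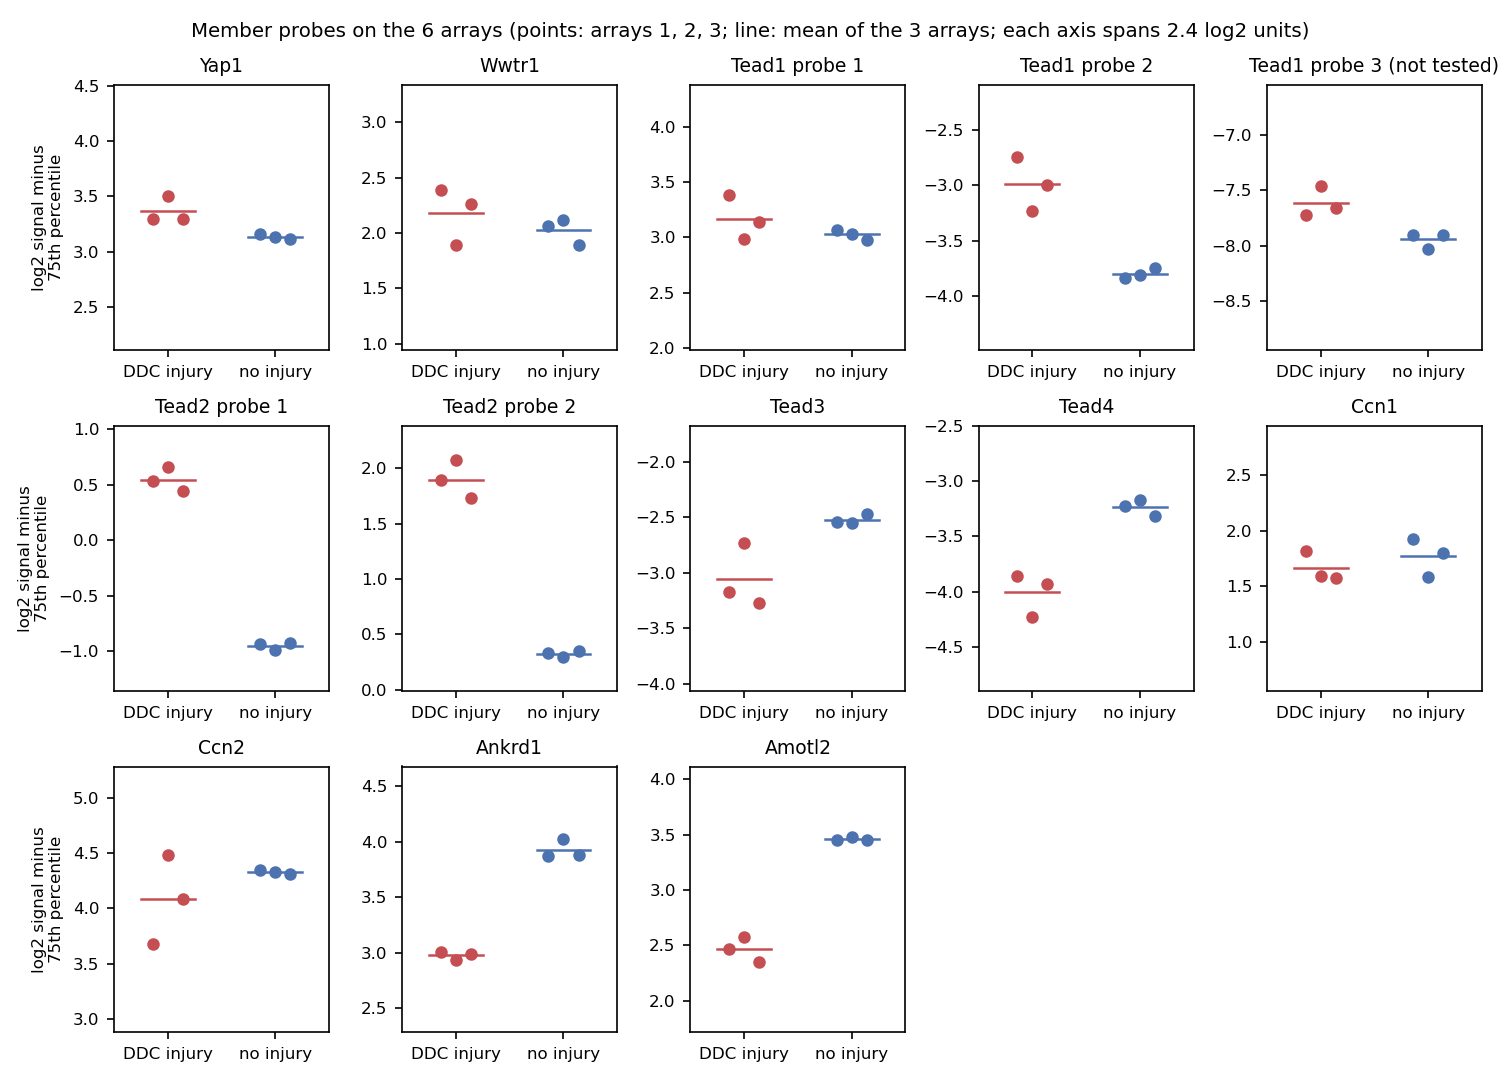
Log2 signal minus the array's 75th percentile (vertical axis, spanning 2.4 log2 units in every panel) for the 13 member probes, with DDC injury arrays in red on the left and no-injury arrays in blue on the right. Points are arrays 1, 2 and 3 in that order and lines the mean of the 3 arrays. The groups are widest apart for the probes of Tead2, and the no-injury arrays of most probes lie closer together than the DDC injury arrays.

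Neither coactivator passed the test. Yap1 had values of 3.30, 3.50 and 3.30 on DDC injury arrays 1, 2 and 3, against 3.16, 3.13 and 3.12 on no-injury arrays 1, 2 and 3. Every DDC injury array lay above every no-injury array, by a margin smaller than the spread of 0.20 within the DDC injury arrays. The difference was 0.23 ± 0.12 (SE, 3 and 2 samples, 1.17-fold, 95% interval -0.10 to 0.55) and was not called by limma (adjusted p = 0.23). Groups that do not overlap were common on these arrays, at 61.1% of all probes tested (29.6% higher, 31.5% lower) and in 8 of the 12 member probes (4 higher, 4 lower). Wwtr1 had values of 2.39, 1.89 and 2.26 on DDC injury arrays, against 2.06, 2.12 and 1.89 on no-injury arrays. These ranges overlapped, and the difference of 0.13 ± 0.19 (95% interval -0.38 to 0.64) was not called (limma adjusted p = 0.648). The intervals leave room for a Yap1 change of up to 1.47-fold and a Wwtr1 change of up to 1.56-fold. Within each array the Yap1 value minus the Wwtr1 value, which no scaling of the array alters, was 0.91, 1.60 and 1.04 in DDC injury, against 1.1, 1.01 and 1.23 in no injury, and the groups overlapped.

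The TEAD genes, which encode the DNA-binding partners, moved in different directions. Tead2, the member best known from early embryos and neural progenitors in the mouse, rose on both of its probes. The brighter probe had values of 1.89, 2.07 and 1.73 on DDC injury arrays, against 0.33, 0.30 and 0.35 on no-injury arrays. The dimmer probe had 0.53, 0.66 and 0.44 on DDC injury arrays, against -0.94, -0.99 and -0.93 on no-injury arrays. On both probes all DDC injury arrays were high and the gap between the groups was several times the spread within either. Tead2 rose by 1.58 ± 0.15 (SE, 2.99-fold, 95% interval 1.19 to 1.97, limma adjusted p = 0.00499) on the brighter probe and by 1.51 ± 0.12 (2.84-fold, adjusted p = 0.00386) on the dimmer one. Of all tested probes, 11.3% had a larger difference in size than the brighter Tead2 probe. Over all alternatives run the differences of the 2 probes stayed between 1.42 and 1.66.

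Tead4, a TEAD protein needed for the trophectoderm of the mouse embryo, fell. It had values of -3.86, -4.23 and -3.93 on DDC injury arrays, against -3.23, -3.17 and -3.32 on no-injury arrays. The groups did not overlap, and the probe was well above background on all arrays though dim. Tead4 fell by 0.78 (log2, SE 0.16), or 1.72-fold (limma adjusted p = 0.0286). The call was lost under quantile normalization (-0.57, adjusted p = 0.106), with normexp and quantile normalization (-0.38, adjusted p = 0.103) and in the authors' deposited values (-0.44, adjusted p = 0.112). It was also lost without DDC injury replicate 3 (-0.82, adjusted p = 0.0724) and with no filter on dim probes (-0.78, adjusted p = 0.0602). Tead3, whose transcripts are abundant in placenta, had values of -3.17, -2.73 and -3.27 on DDC injury arrays, against -2.54, -2.55 and -2.47 on no-injury arrays. All DDC injury arrays were the lower ones, but the difference of -0.53 ± 0.20 (95% interval -1.07 to 0.02) was not called by limma (adjusted p = 0.126). It was called without DDC injury replicate 2, the highest of its group (-0.69, adjusted p = 0.0157).

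The probes of Tead1, the broadly expressed member, disagreed. The brightest had values of 3.38, 2.99 and 3.14 on DDC injury arrays, against 3.07, 3.03 and 2.98 on no-injury arrays. These overlapped, with a difference of 0.14 ± 0.16 (95% interval -0.28 to 0.56, limma adjusted p = 0.542). The second had values of -2.74, -3.23 and -3.0 on DDC injury arrays, against -3.84, -3.81 and -3.75 on no-injury arrays. This probe rose by 0.81 ± 0.18 (1.76-fold, adjusted p = 0.0357) with no overlap. The call was lost without DDC injury replicate 3 (0.82, adjusted p = 0.0969) and with the scan as a random block (0.84, adjusted p = 0.0645). With no filter on dim probes it was lost too (0.81, adjusted p = 0.0697). The third probe was well above background on 1 DDC injury array and 1 no-injury array and was not tested. Its values were -7.72, -7.46 and -7.66 on DDC injury arrays and -7.90, -8.03 and -7.90 on no-injury arrays. The mean of the tested Tead1 probes differed by 0.48 and did not pass (adjusted p = 0.092). No direction can therefore be given for Tead1 as a gene.

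Differences between TEAD probes within each array, which no scaling of an array can alter, describe the same values another way, since the pairs were chosen with the calls known. The brighter Tead2 probe minus the brightest Tead1 probe averaged -1.27 ± 0.31 in DDC injury (SD, n = 3) and -2.71 ± 0.03 in no injury (SD, n = 2), a change of 1.43. The same quantity against Tead3 changed by 2.11 and against Tead4 by 2.36. In each of these 3 pairs the arrays of the groups did not overlap. The exact permutation test of 3 samples against 2 was made two-sided by doubling the smaller one-sided p. Counted in that way it cannot give a p below 0.2, so it adds nothing to these values.

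**Figure D2:**
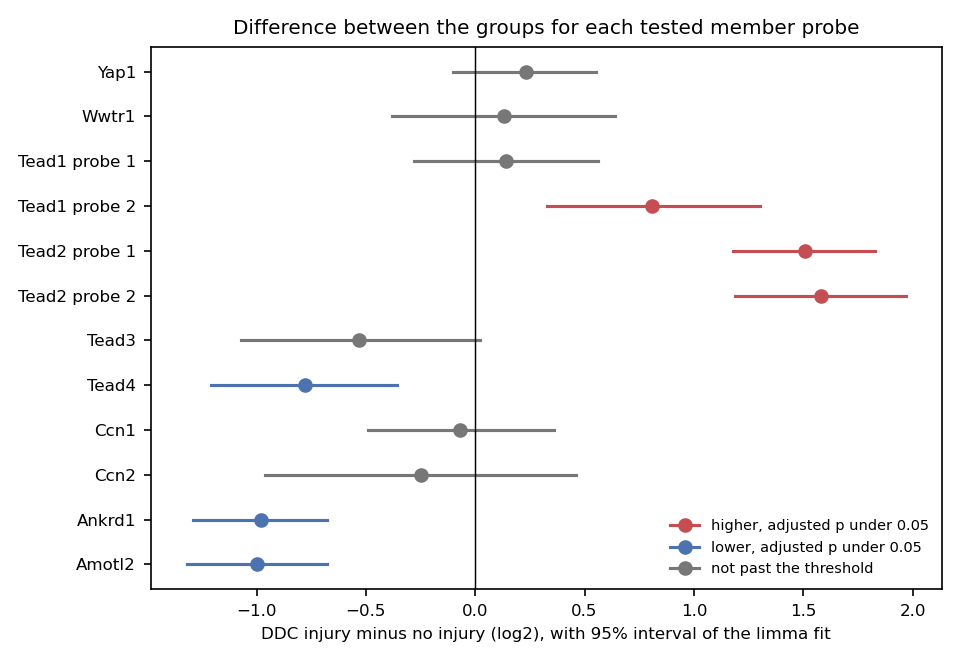
Difference between DDC injury and no injury on the log2 scale (horizontal axis) for the 12 tested member probes, with points for the limma estimate and bars for its 95% interval. Both Tead2 probes and the second Tead1 probe lie to the right of 0 and Tead4, Ankrd1 and Amotl2 to the left, while the intervals of the other 6 probes include 0.

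The target genes differed in whether they were called. Ankrd1, a nuclear and sarcomeric ankyrin-repeat protein, and Amotl2, an angiomotin-family scaffold that is induced by YAP and itself binds YAP, were lower after DDC injury by nearly the same amount. Ankrd1 had values of 3.01, 2.93 and 2.99 on DDC injury arrays, against 3.87, 4.03 and 3.88 on no-injury arrays. Amotl2 had values of 2.47, 2.58 and 2.35 on DDC injury arrays, against 3.45, 3.48 and 3.45 on no-injury arrays. For both genes the 3 DDC injury arrays were close to each other and clear of the no-injury arrays. Ankrd1 fell by 0.98 (log2, SE 0.11), or 1.97-fold (95% interval -1.29 to -0.68, limma adjusted p = 0.00793). Amotl2 fell by 1.00 (SE 0.12, 2-fold lower, 95% interval -1.32 to -0.68, adjusted p = 0.00863). Falls of this size were not rare, since 25.4% of tested probes had a larger difference in size than Ankrd1 and 24.7% a larger one than Amotl2.

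For Ccn1 and Ccn2, secreted matricellular proteins that bind integrins and are among the most used readouts of YAP, no difference was detected. Ccn1 had values of 1.82, 1.59 and 1.57 on DDC injury arrays, against 1.93, 1.58 and 1.80 on no-injury arrays. Ccn2 had values of 3.68, 4.48 and 4.08 on DDC injury arrays, against 4.35, 4.33 and 4.31 on no-injury arrays. The groups overlapped for both, and the DDC injury arrays of Ccn2 spread over 0.80, with replicate 2 above and replicates 1 and 3 below every no-injury array. The difference was -0.07 ± 0.16 for Ccn1 (95% interval -0.49 to 0.36, limma adjusted p = 0.786). It was -0.25 ± 0.26 for Ccn2 (95% interval -0.96 to 0.46, adjusted p = 0.529). The interval of Ccn2 is wide enough to hold a fall close to that of Ankrd1, and the data do not show that Ccn2 was unaffected. Its difference was -0.45 without DDC injury replicate 2, -0.48 in the authors' deposited values and -0.05 without DDC injury replicate 1. In none of these cases was it called.

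The same targets can be set against each other within arrays. The Ankrd1 value minus the Ccn1 value averaged 1.32 ± 0.11 in DDC injury (SD, n = 3) and 2.23 ± 0.31 in no injury (SD, n = 2), a change of -0.92. Amotl2 minus Ccn1 averaged 0.81 ± 0.17 in DDC injury and 1.74 ± 0.22 in no injury, a change of -0.94. Against Ccn2 the change was -0.73 for Ankrd1 and -0.75 for Amotl2. In all 4 of these pairs the arrays of the groups did not overlap. Ankrd1 minus Amotl2 changed by 0.02 and Ccn1 minus Ccn2 by 0.18, both with overlapping arrays. The pairs were formed with the calls of these genes known, so these values describe the calls within arrays and are no test of them.

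When only the arrays that shared a scan day were used, without DDC injury replicate 1, the 6 called probes were called again. Tead2 differed by 1.58 and 1.51, the second Tead1 probe by 0.69, Tead4 by -0.85, Ankrd1 by -1.0 and Amotl2 by -1.0, with adjusted p between 0.0066 and 0.0279. With the scan as a random block Tead2, Ankrd1 and Amotl2 were called, and Tead4 (-0.77, adjusted p = 0.068) was not. Scan and group cannot be told apart in full, since no scan held both groups.

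**Figure D3:**
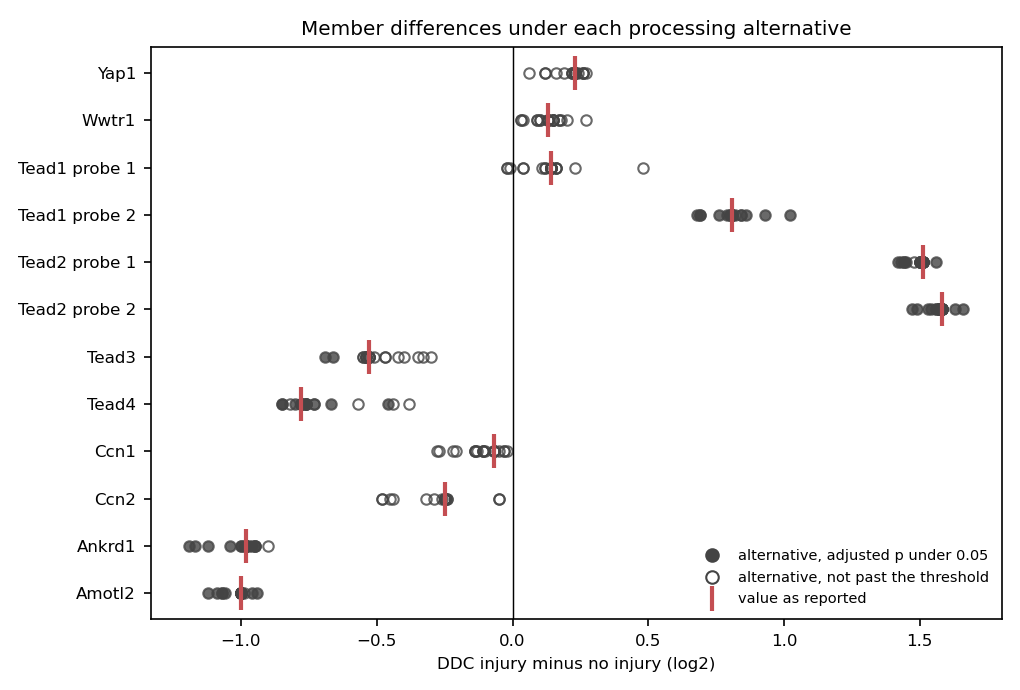
Difference between DDC injury and no injury on the log2 scale (horizontal axis) for each tested member probe under every processing alternative, with filled circles where limma's adjusted p was below 0.05, open circles elsewhere, and red bars for the values reported in the text. Tead2, Ankrd1 and Amotl2 keep their side of 0 in every alternative and Tead1 probe 1 crosses it.

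The genes most like each target were found by the root mean square difference between mean-centred log2 values over the 6 arrays, among 12579 named genes well above background on all of them. For Ankrd1 these were Armcx3 (0.040), Zbtb39 (0.045) and Rbl2 (0.047), and for Amotl2 they were Zfp846 (0.026), Gm2a (0.030) and Kalrn (0.032). For Ccn1 they were Zfp707 (0.050), Kif3a (0.057) and Mterf4 (0.066), and for Ccn2 they were Birc6 (0.042), Galnt7 (0.063) and Fbrs (0.064). None of the 4 targets was among the nearest 3 of another. Among so many genes this does not show that the targets moved apart, and Ankrd1 minus Amotl2 changed by 0.02 within arrays.

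The other genes of the pathway were described from lists, each gene by its brightest tested probe. By that probe 16.2% of 15668 tested genes were called higher and 14.6% lower (30.7% in all), with a median difference of -0.07. Of the 7 genes of the kinase cassette, all tested, 2 were called higher and 1 lower, with a median of 0.32. Stk3, the kinase MST2, rose by 1.04 ± 0.11 (2.05-fold, limma adjusted p = 0.00693), with values of 2.55, 2.45 and 2.38 on DDC injury arrays against 1.42, 1.44 and 1.38 on no-injury arrays. Mob1a, a cofactor of the LATS kinases, rose by 0.94 ± 0.22 (adjusted p = 0.0396). Lats2, a kinase that phosphorylates YAP and is also a YAP target, fell by 0.84 (SE 0.18, adjusted p = 0.0328), with a second probe at -0.36 that was not called. The paralogue Lats1 differed by 0.73 (adjusted p = 0.0776), the scaffold Sav1 by 0.18, Stk4 by -0.06 and Mob1b by 0.32, none of them called.

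Of 18 genes that act upstream of the kinases, 16 were tested, 1 was called higher and 4 lower (median 0.02). The polarity gene Scrib rose by 0.87 ± 0.10 (adjusted p = 0.00858). Crb3, an apical polarity protein of epithelia, fell by 3.01 (SE 0.57, 8.05-fold lower, adjusted p = 0.0241), and its values were -4.10, -2.36 and -3.65 on DDC injury arrays against -0.31, -0.47 and -0.20 on no-injury arrays. The kinases Taok2 (-0.82) and Taok3 (-1.34), which phosphorylate MST kinases, and Wwc1 (-0.63), which encodes the scaffold KIBRA, were also called lower. Nf2, which encodes merlin, differed by 0.18 on its brightest probe and was not called, while its other probe was called higher at 0.49. Map4k4 likewise differed by 0.19 on its brightest probe, not called, and by 0.94 on its other probe, called higher. The other Taok2 probe, at -0.52, was not called. Among 7 partners of YAP or TEAD 4 were tested, and the angiomotins split. Amotl1 rose by 1.31 ± 0.16 (2.49-fold, adjusted p = 0.00925) and Amot fell by 1.04 (SE 0.19, 2.06-fold lower, adjusted p = 0.0229), beside the fall of Amotl2. Ptpn14, a phosphatase that binds YAP, rose by 0.93 ± 0.13 (adjusted p = 0.0114). Vgll1 and Vgll3, cofactors that compete for TEAD, were well above background on 0 arrays.

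A published signature of YAP activity held 18 further genes, with Lats2 and Ptpn14 among them, of which 17 were tested. Of these 3 were called higher and 4 lower, with a median of 0.20. Besides Ptpn14, Ccdc80 rose by 1.74 ± 0.31 and Asap1 by 0.78 ± 0.15, Asap1 in a fit without DDC injury replicate 3, whose spot was marked as an outlier. Besides Lats2, Fjx1 fell by 2.77 (SE 0.18, 6.81-fold lower, adjusted p = 0.00251), Arhgef17 by 1.60 and Nuak2 by 0.83. Fjx1 had values of 0.20, -0.26 and -0.10 on DDC injury arrays, against 2.70, 2.72 and 2.71 on no-injury arrays. Tgfb2 differed by -0.62 on its brightest probe and was not called, while its other probe was called lower at -1.06. Igfbp3 was not tested, because its spot was marked as an outlier on all 3 DDC injury arrays. The share called higher, 3 of 17, lay near the 16.2% of all tested genes. The share called lower, 4 of 17, lay above the 14.6% of all tested genes, and no test of the list was run.

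**Figure D4:**
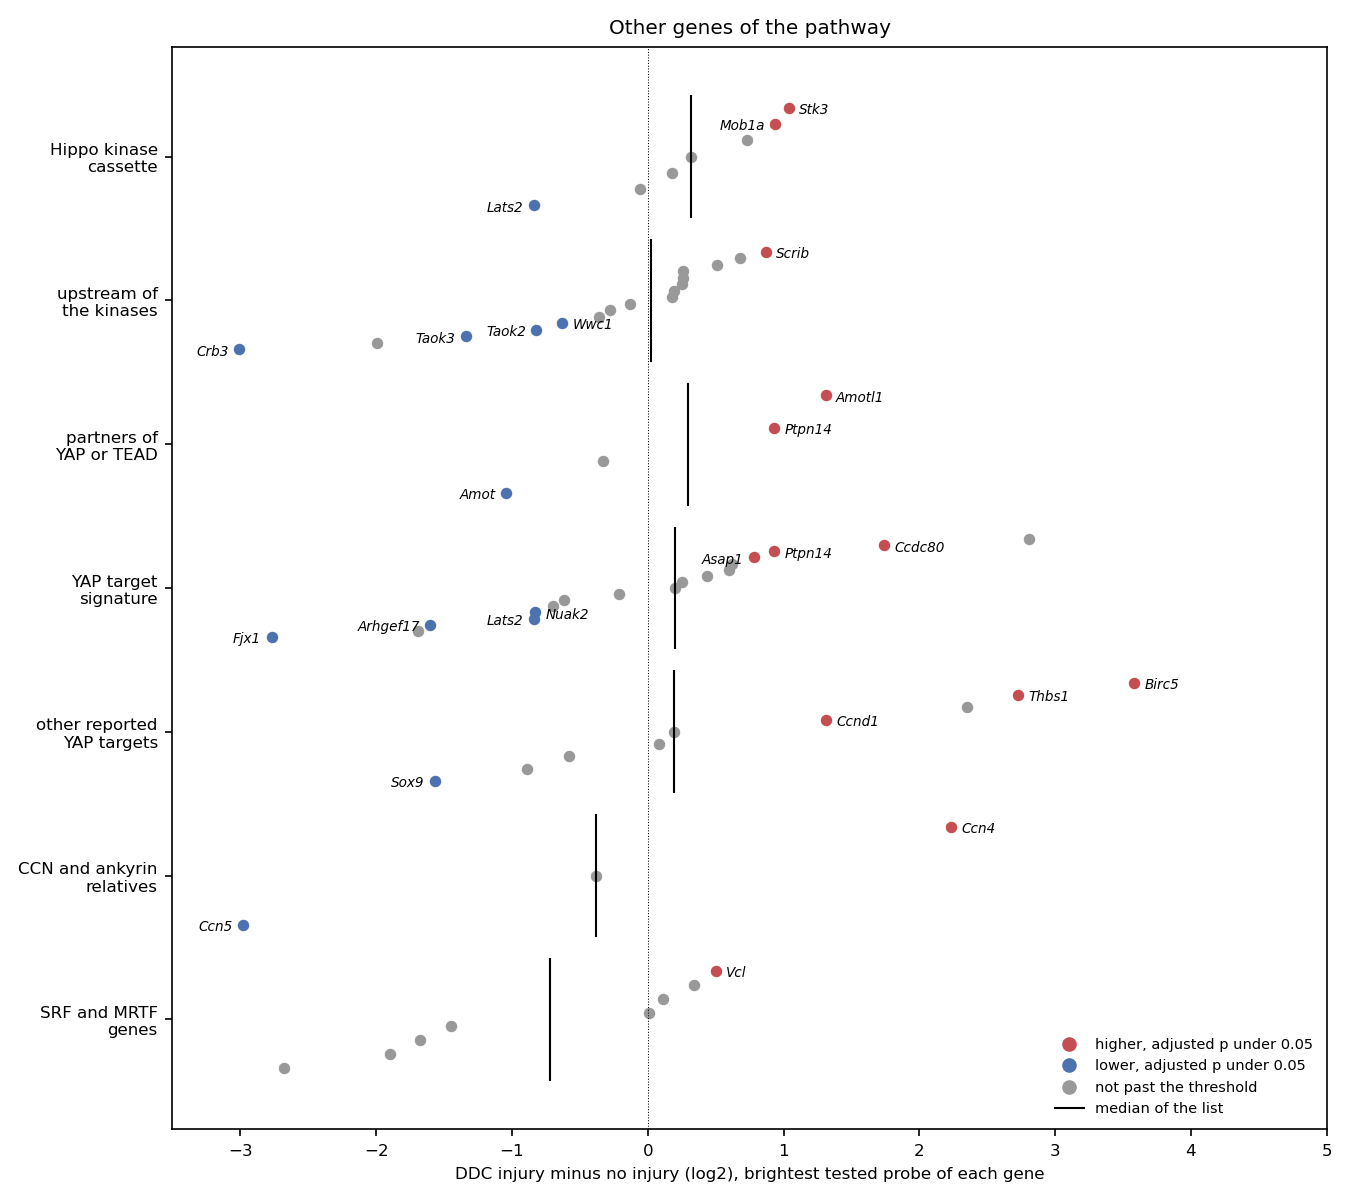
Difference between DDC injury and no injury on the log2 scale (horizontal axis) for the tested genes of 7 pathway lists, each by its brightest tested probe, with black lines for the median of a list. Called genes are named, and every list but the SRF and MRTF genes holds genes called in both directions.

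Of 9 other genes reported as YAP targets in various tissues, all tested, 3 were called higher and 1 lower (median 0.19). The matrix glycoprotein Thbs1 had values of 0.33, 2.16 and 0.28 on DDC injury arrays, against -1.73, -1.88 and -1.74 on no-injury arrays, and rose by 2.73 ± 0.67 (6.64-fold, adjusted p = 0.0443). Its highest value was that of DDC injury replicate 2. Birc5, which encodes the mitotic protein survivin, rose by 3.58 ± 0.16 (12-fold, adjusted p = 0.00145) and the cyclin Ccnd1 by 1.31 ± 0.16. Sox9, a transcription factor of biliary and progenitor cells, fell by 1.57 (SE 0.28, adjusted p = 0.0217), and the Notch genes Jag1 (-0.58) and Notch2 (-0.89) were not called. Of 8 proliferation markers 7 were called higher, and their summed linear signal was 45.2 to 46.1 times the array's 75th percentile in DDC injury against 3.95 to 4.08 in no injury. What part proliferation has in the values of Birc5 and Ccnd1 was not tested.

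Relatives of the target genes also moved in opposite directions. Ccn4 (WISP1) had values of 3.69, 2.80 and 3.63 on DDC injury arrays, against 1.18, 1.15 and 1.08 on no-injury arrays, and rose by 2.23 ± 0.32 (4.69-fold, adjusted p = 0.0128). Ccn5 (WISP2) had values of -5.48, -4.95 and -4.50 on DDC injury arrays, against -1.84, -2.02 and -2.10 on no-injury arrays, and fell by 2.98 (SE 0.32, 7.87-fold lower, adjusted p = 0.00676). Ccn3 and Ccn6 were well above background on 0 arrays, and Ankrd23 differed by -0.38 and was not called. Within the CCN family the measured members therefore comprised 1 that rose, 1 that fell, and Ccn1 and Ccn2, which did not pass the test. Of 8 genes of the SRF and MRTF pathway, which shares targets with YAP, 1 was called higher and none lower, with a median of -0.72. The called gene was vinculin (Vcl) at 0.50 ± 0.13, whose other probe, at 0.47, was not called. Mrtfb differed by 0.01 on its brightest probe, not called. Its 3 tested probes ran from 0.01 to 0.83, and 1 of them was called higher. The contractile genes Acta2 (-1.90), Tagln (-1.68), Cnn1 (-1.45) and Myl9 (-2.68) were not called, and each had its lowest value on DDC injury replicate 1. Cnn1 and Myl9 were well above background on only 2 of the 3 DDC injury arrays. Their values on replicate 1 were -10.06 and -7.57, so their differences rest in part on values near the floor. Of the 23 list genes called, Birc5 alone was called in every alternative run. Without no-injury replicate 2, or with the 3 no-injury arrays averaged, the other 22 lost their call. Without DDC injury replicate 3, 12 did, among them Lats2, Mob1a, Crb3, Amot and Thbs1, and with the scan as a random block 13 did, among them Crb3 (adjusted p = 0.0501), Wwc1 (0.0537) and Amot (0.0558). With no filter on dim probes 8 lost their call. Quantile normalization, with or without normexp, and the authors' deposited values each took 2 calls, those of Asap1 and Vcl. Normexp with the 75th percentile took 4, Asap1 and Vcl among them. None changed sign in any of these settings.

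The cells' own markers were checked beside these results. Cd63 was well above background on all arrays and differed by -0.11 (adjusted p = 0.677). All 10 cholangiocyte markers were well above background on every array, 4 of them called lower, with a summed linear signal of 75.2 to 86.8 in DDC injury and 95.2 to 100 in no injury. Of 10 hepatocyte markers 4 were called lower (summed signal 11.1 to 17.7 in DDC injury against 29.9 to 34.1 in no injury), and 2 of these 4, Apoa1 and Fga, were well above background only in no injury and so entered the test through that group. Of the markers of stellate cells and fibroblasts (6 of 10 tested), endothelium (8 of 10) and macrophages (8 of 10), 1 was called, the macrophage marker Itgam, which was lower. Cd14, the brightest of them, had values of 1.44, 2.54 and 1.34 on DDC injury arrays, against 2.54, 2.54 and 2.60 on no-injury arrays, and was not called. The summed signals of the 3 lists were 0.15 to 1.16, 0.174 to 0.63 and 2.96 to 6.32 in DDC injury, against 0.38 to 0.557, 0.556 to 0.83 and 7.5 to 7.82 in no injury. Des, Reln and Clec4f were well above background on 0 arrays. Of 8 mesothelial markers 7 were tested, 1 called higher and 3 lower, of which Upk3b was well above background in no injury only. The 6 measured on every array summed to 22.9 to 28.4 in DDC injury and 26.1 to 28.5 in no injury. Krt8 was not among them, as its spot was left out on no-injury replicate 2. Most of this sum is the signal of Msln, which differed by 0.15 and was not called. The median difference of the 7 tested was -3.28. The called falls were Upk1b (-7.73), Wt1 (-3.30) and Upk3b (-3.28), Podxl (0.93) was called higher, and Gpm6a (-5.02) was not called. The part of these differences in the values of the Hippo genes was not tested.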

How the data were processed

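Members, gene lists and alternatives were chosen with earlier results of these data known. Per the file headers, the authors' scanner files were made with Feature Extraction 11.0.1.1, and their processed signal is an intensity made from the spot signal within each array. The deposited value table holds log2 values that share their quantiles across arrays; the submitters' processing notes name limma without a version, and the background correction behind it is not given in the sources used here. Probes were named by transcript accession through RefSeq (GRCm38.p6). Of 39429 probes 27234 had 1 symbol, 0 several and 12195 none. No gene coordinates are given, since the array annotation refers to mm9, and promoter windows carry the build of their own table.

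Spots marked as non-uniform or population outliers were left out, no spot was saturated, and repeated spots were averaged. Log2 processed signals minus each array's 75th percentile were fitted with limma 3.58.1 in R 4.3.3 (lmFit, eBayes, two-sided) for each of 27444 probes with at least 2 values per group. Differences are DDC injury minus no injury. The fit was tested on simulated data. All members are named; from each pathway list up to 4 genes each way with the smallest adjusted p are named, and every kinase cassette gene. One gene of the lists is not reported here and is left out of their counts. Genes outside this rule were chosen after their values were seen. Alternatives covered the counting of the no-injury arrays, background correction, scaling, filter, probe choice, scan, pairing and left-out replicates. The normexp alternatives used the median spot signal, as a mean signal was not used here.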

Additional observations from a re-analysis of the deposited data

How the results depend on the processing

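Over all probes, 4241 were called higher and 3785 lower. With no-injury arrays averaged into 1 sample the counts were 279 and 132. They were 6206 and 5933 with 6 arrays counted separately, 2956 and 2495 with no filter on dim probes, 6982 and 6735 with array weights, and 2766 and 2278 with the scan as a random block. With 1 probe per gene 2764 genes were higher and 2468 lower, and by the mean over each gene's probes 2739 and 2436, where fewer features are tested. Leaving out each replicate gave 290 to 5490 higher and 104 to 4841 lower, the lowest without no-injury replicate 2, which leaves 1 sample in that group, assumed to vary like the other group. Without DDC injury replicate 3 the counts were 2433 and 2220.

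The member counts, 3 higher and 3 lower, became 0 and 0 once the 3 no-injury arrays were averaged, and 0 to 3 higher and 0 to 4 lower over the left-out replicates, with 0 and 0 without no-injury replicate 2. At that setting adjusted p was 0.0784 and 0.083 for Tead2, 0.117 for Ankrd1 and 0.119 for Amotl2, with differences of 1.48, 1.56, -0.90 and -0.99. In the other alternatives Tead2, Ankrd1 and Amotl2 were called. The brightest Tead1 probe turned sign, at -0.02 with normexp and quantile normalization, -0.01 with quantile normalization and -0.02 in the authors' deposited values, in each case uncalled. Every other member probe kept its sign, and Yap1, Wwtr1, Ccn1 and Ccn2 were called in none. The median of all probes was -0.0978 as reported and 0.079 with normexp and the 75th percentile, a shift near the size of the Yap1 difference, which was 0.06 to 0.27 over the alternatives.

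Whether the replicate numbers pair the arrays was not settled. Deviations from the group mean correlated weakly, at 0.122, 0.036 and 0.0829, between arrays of the same number. Between arrays of different numbers the correlations ran from -0.142 to 0.0539. For each DDC injury replicate the highest of them was with the no-injury array of the same number. With the number as a replicate block and 6 arrays counted separately, 4360 probes were higher and 4200 lower, and 3 and 3 of the members, with Tead2 at 1.57 and 1.5, Ankrd1 at -0.95 and Amotl2 at -1.0. The cause of these changes was not tested, beyond the number of samples or features that a setting leaves.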

Other observations

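Several targets of the pathway lists varied within the DDC injury group, with replicate 2 apart from replicates 1 and 3. These genes were chosen after their values were seen. Nt5e, an ectonucleotidase, had values of -0.78, -3.13 and -0.60 on DDC injury arrays 1, 2 and 3, against -4.32, -4.31 and -4.30 on no-injury arrays. Areg, a ligand of the EGF receptor, had values of 2.12, 0.27 and 1.85 on DDC injury arrays, against -0.95, -0.92 and -0.98 on no-injury arrays. Both were higher on all 3 DDC injury arrays and neither was called by limma (differences 2.81 and 2.35, adjusted p = 0.0793 and 0.0545). F3, which encodes tissue factor, had values of 3.50, 2.16 and 3.53 on DDC injury arrays, against 2.44, 2.46 and 2.41 on no-injury arrays, and Gadd45a had 2.35, 1.03 and 2.63 against 1.75, 1.71 and 1.85. For these 2 genes replicate 2 lay below every no-injury array and the other replicates above. Thbs1 ran the other way, with its highest value on replicate 2, as did Ccn2. Without replicate 2 Thbs1 differed by 2.11.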
